A study of Mus musculus with 4 samples.

Results

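The colony stimulating factors and their receptors were followed in 4T1 cells, a mouse mammary carcinoma line, after knockdown of Ldha. The set held 8 genes, 4 ligands (Csf3, Csf2, Csf1 and Il34) and 4 receptor chains (Csf3r, Csf2ra, Csf2rb and Csf1r), out of 22180 genes with a value. Genes were matched by exact symbol in the platform annotation, which gave 9 probe sets, 2 of them for Csf2 and 1 for each other gene. No probe set of several symbols held any of them.

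Colony stimulating factors are secreted proteins that drive the growth, survival and release of myeloid cells. G-CSF, the product of Csf3, acts on neutrophils and their precursors through the receptor Csf3r. GM-CSF, the product of Csf2, acts on granulocytes, macrophages and dendritic cells through a specific chain, Csf2ra, and a shared signalling chain, Csf2rb. M-CSF, the product of Csf1, and interleukin 34 both bind the receptor tyrosine kinase Csf1r and sustain macrophages. 4T1 tumours are known for the many granulocytic cells that they draw out of the marrow of their hosts, so the comparison asks how much of each ligand's transcript the cells made with and without the Ldha hairpin.

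The shLDHA group carried a short hairpin RNA against Ldha, the gene of lactate dehydrogenase A, which turns pyruvate into lactate. These cells were a pool, not a single clone, left after selection with puromycin at 10 µg/ml. The scramble group carried a hairpin of scrambled sequence, and the labels do not state whether it was selected, so selection and knockdown cannot be told apart. Both were grown in vitro for 24 hours, with no host cells, and 2 whole-transcript arrays were run per group from 400 ng of total RNA each. Nothing states that the 2 arrays of a group came from separate cultures, so a p-value here speaks of array-to-array spread, possibly technical, and not of spread between cultures.

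Values are log2 array signals as deposited, and a difference of 1 is a 2-fold change. A gene was called where limma's test, adjusted over all 22180 genes by the Benjamini-Hochberg method, gave a p under 0.05. Ldha read 6.31 and 6.15 on the shLDHA arrays, against 6.69 and 6.96 on the scramble arrays, a log2 change of -0.59 (SE 0.12, limma adjusted p = 0.0390). The call was lost without shLDHA replicate 1 (adjusted p = 0.0965), shLDHA replicate 2 (0.163) or scramble replicate 2 (0.128). Arrays correlated at 0.997 within both groups and at 0.993 between them, across genes. By their mean over the 4 arrays, all 8 tested epithelial markers were above 4.19, the level under which 95% of 1105 olfactory receptor genes lay. Krt14 was above it through the shLDHA arrays alone (4.54 and 4.86, against 3.88 and 3.92 on the scramble arrays). Epcam (log2 change 0.53), Krt8 (0.47) and Krt14 (0.80) rose, each with the call kept in 7 to 11 of 13 other settings. Krt18 (0.24), Krt7 (0.25), Cdh1 (0.04), Krt19 (-0.33) and Cldn4 (-0.23) did not pass, and the last 2 were lower on both shLDHA arrays than on both scramble arrays. The list's summed linear signal was 5291 to 5315 on shLDHA arrays and 4632 to 4655 on scramble arrays, and its part in the changes of the ligand genes was not tested. Olfactory receptors are silent in most cells outside the nose and served as a guide to unspecific signal. Of 7 lymphocyte, 9 fibroblast and 6 endothelial markers, 6, 7 and 6 were at or below that level, and 0 were called. Those above it were Nkg7 of the lymphocyte list and Acta2 and Pdgfra of the fibroblast list. Pdgfra was well above it, at 6.38 and 6.61 on the shLDHA arrays and 6.53 and 6.50 on the scramble arrays.

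Of the 8 genes, 3 fell and 0 rose in shLDHA cells. All 3 were ligands. Across all genes, 2.99% were called lower and 3.37% higher. Csf3 and Csf2 fell at least 2-fold with a call, which 0.446% of all genes did. Both shLDHA arrays lay below both scramble arrays for 5 of the 8 genes, against 24.0% of all genes. The other 3, Csf3r, Csf2ra and Csf2rb, had overlapping groups.

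**Figure D1:**
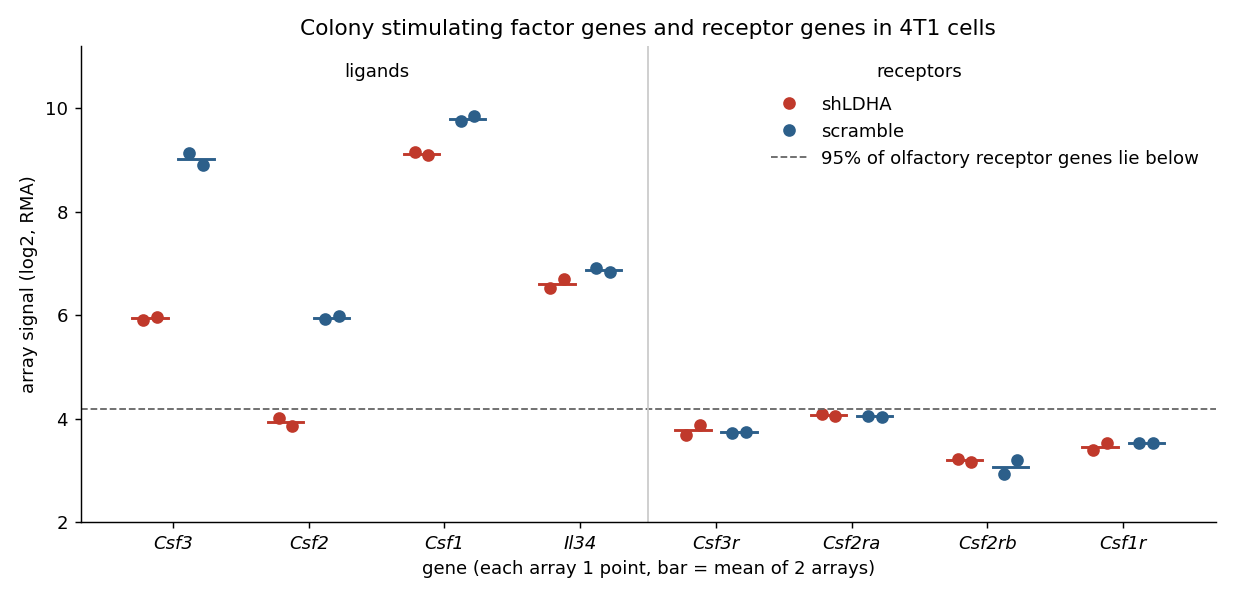
Array signal (log2) of the 4 ligand genes and 4 receptor genes, with shLDHA arrays left of scramble arrays, 1 point per array and a bar at the mean of 2 arrays. The dashed line marks 4.19, under which 95% of olfactory receptor genes lay; the 4 receptor genes are below it in both groups, and Csf2 is below it in shLDHA cells.

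Csf3 had the largest change of the set. It read 5.91 and 5.97 on the shLDHA arrays, against 9.14 and 8.89 on the scramble arrays. The groups lay far apart, with their nearest arrays at 5.97 and 8.89. The largest gap within a group was the one between the scramble arrays, from 8.89 to 9.14. The means were 5.94 ± 0.04 in shLDHA cells and 9.02 ± 0.17 in scramble cells (SD, n = 2 each), a log2 change of -3.08 (SE 0.11, limma adjusted p = 0.000164). The Csf3 signal in shLDHA cells was thus 11.9% of that in scramble cells, with a 95% confidence interval of 9.94% to 14.2%. Only 5 of all genes tested fell further. In RNA from a whole culture, fewer cells with a transcript and less transcript per cell cannot be told apart.

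Csf2 came second. Its brighter probe set read 4.02 and 3.86 on the shLDHA arrays, against 5.92 and 5.99 on the scramble arrays. The shLDHA values fell under the level of 95% of olfactory receptor genes, and the scramble values were well over it. Signals this low are compressed, so the fold may understate the change. The means were 3.94 ± 0.11 in shLDHA cells and 5.95 ± 0.05 in scramble cells (SD, n = 2 each), a log2 change of -2.02 (SE 0.09, limma adjusted p = 0.000336). That left 24.7% of the scramble signal (95% confidence interval 21.1% to 28.9%), and Csf2 ranked 18 among all falls. The second Csf2 probe set was dim, at 2.91 and 3.09 on the shLDHA arrays against 3.56 and 3.09 on the scramble arrays. Its groups were split by less than 0.01, and its change of -0.32 did not pass where every probe set was tested (adjusted p = 0.502). Averaging both probe sets gave a Csf2 change of -1.17 (adjusted p = 0.00263).

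Csf1 fell by less. It read 9.15 and 9.09 on the shLDHA arrays, against 9.74 and 9.85 on the scramble arrays, with no overlap. The means were 9.12 ± 0.05 in shLDHA cells and 9.80 ± 0.08 in scramble cells (SD, n = 2 each), a log2 change of -0.67 (SE 0.09, limma adjusted p = 0.0104). The remaining Csf1 signal was 62.7% of that in scramble cells (95% confidence interval 54.1% to 72.5%). The call was lost without shLDHA replicate 1 (adjusted p = 0.0511), without shLDHA replicate 2 (0.0660) and where every probe set was tested (0.0846).

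Il34, the other ligand of Csf1r, did not pass. It read 6.53 and 6.69 on the shLDHA arrays, against 6.91 and 6.83 on the scramble arrays. Both shLDHA values were the lower ones, by a narrow margin between the nearest arrays. The log2 change was -0.27 (SE 0.10), with an unadjusted p of 0.0286 and an adjusted p of 0.171 in the limma fit. The interval for its remaining signal ran from 71.0% to 97.4% of scramble.

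The order of the changes was Csf3, Csf2, Csf1, Il34, and the 95% confidence intervals of the first 3 did not overlap one another, while those of Csf1 and Il34 did (the plot of changes). Csf2 in shLDHA cells was under the 4.19 level, so its fall may be understated, and with it the place of Csf2 in this order and its differences from the others are uncertain. As measured, the change of Csf3 was 1.06 larger than that of Csf2 on the log2 scale, and 2.40 larger than that of Csf1. The change of Csf2 was 1.34 larger than that of Csf1. With the mean of the Csf2 probe sets, the difference of Csf3 minus Csf2 was -1.91 and that of Csf2 minus Csf1 was -0.50. An exact two-sided permutation test of each of these 3 differences gave p = 0.333, also after adjustment over the 3 pairs. This is the smallest p that 2 arrays against 2 can give, so this test could not pass.

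**Figure D2:**
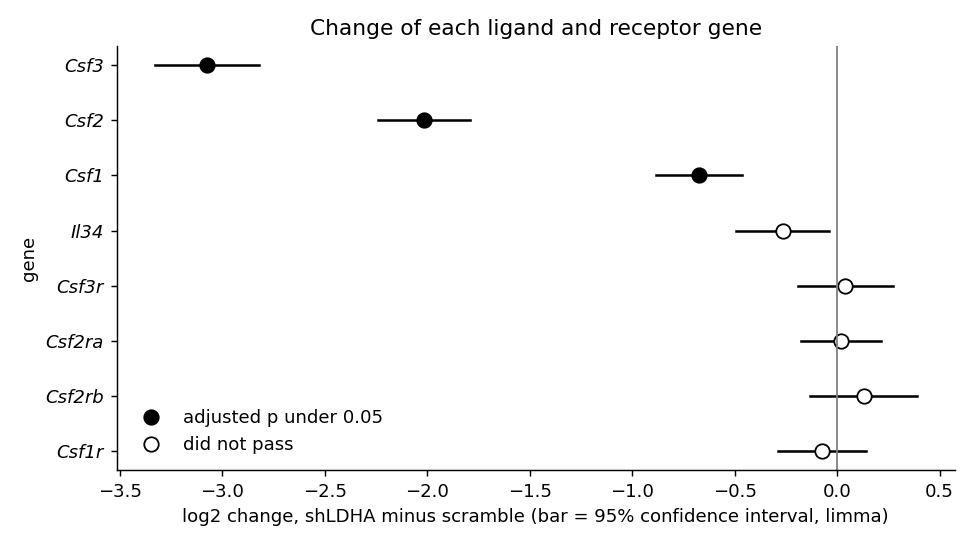
Log2 change (shLDHA minus scramble) of each of the 8 genes with its 95% confidence interval from limma; filled points passed at an adjusted p under 0.05. Csf3, Csf2 and Csf1 are filled at -3.08, -2.02 and -0.67, and the 4 receptor genes lie within 0.13 of 0.

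Stretches upstream of the gene start are shown for Csf2 and Csf1, ligands that fell, from RefSeq on build GRCm38.p6. The promoter sequences used held none for Csf3 or Il34, so those genes were not searched. Each is the 250 bases before the start, 5′ to 3′ on the gene's own strand, which is the minus strand for both. The Csf2 stretch is chr11:54249900-54250149 and the Csf1 stretch is chr3:107760470-107760719. Capitals mark matches to a motif searched on both strands.
Csf2: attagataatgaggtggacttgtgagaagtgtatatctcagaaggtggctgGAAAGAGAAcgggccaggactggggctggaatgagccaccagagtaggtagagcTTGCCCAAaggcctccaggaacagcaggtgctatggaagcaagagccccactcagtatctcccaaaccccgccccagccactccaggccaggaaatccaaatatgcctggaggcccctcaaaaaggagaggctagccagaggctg
Csf1: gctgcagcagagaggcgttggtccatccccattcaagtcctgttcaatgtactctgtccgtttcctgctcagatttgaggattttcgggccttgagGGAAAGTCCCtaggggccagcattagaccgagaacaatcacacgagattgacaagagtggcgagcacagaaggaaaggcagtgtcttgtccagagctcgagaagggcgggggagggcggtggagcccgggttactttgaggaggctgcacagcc

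The motifs searched were AP-1 (TGANTCA), C/EBP (TTGCNNAA), the CK-1 element known from cytokine promoters (GAGNTTCCA), an interferon-type element (GAAANNGAA), the TATA box (TATAAA) and the consensus of NF-kB. Csf2 held 1 interferon-type match, starting 199 bases before the gene start, and 1 C/EBP match, starting at 145 bases. Csf1 held 1 NF-kB match, on the opposite strand, starting at 154 bases. The matches did not overlap. Among 32841 promoter windows of this length, 7.13% held the interferon-type letters, 9.57% the C/EBP letters and 3.9% the NF-kB consensus. The other motifs searched, found in 6.75% (AP-1), 1.27% (CK-1) and 12.4% (TATA) of windows, were not among the letters of either stretch. Only the bases before the start listed for each gene were searched. Which start the cells used was not tested, so a motif missing here may lie in the promoter that they used.

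The receptor genes gave low signals and no call. Csf3r, the G-CSF receptor, read 3.68 and 3.87 on the shLDHA arrays, against 3.73 and 3.74 on the scramble arrays. Csf2ra, the chain that binds GM-CSF, read 4.09 and 4.04 in shLDHA cells, against 4.06 and 4.04 in scramble cells. Both had overlapping groups, and their means over the 4 arrays exceeded those of 91.0% (Csf3r) and 94.2% (Csf2ra) of olfactory receptor genes.

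Csf2rb, the shared signalling chain, read 3.22 and 3.17 on the shLDHA arrays, against 2.94 and 3.20 on the scramble arrays. Csf1r, which serves M-CSF and interleukin 34, read 3.39 and 3.53 in shLDHA cells, against 3.53 and 3.54 in scramble cells. Its groups were split by less than 0.01. The log2 changes of the 4 receptor genes were 0.04 (Csf3r), 0.02 (Csf2ra), 0.13 (Csf2rb) and -0.07 (Csf1r), with limma adjusted p-values from 0.576 to 0.941. These p-values do not show that the receptors stayed alike. The 95% intervals allowed signals from 81.9% (Csf1r, lowest) to 131% (Csf2rb, highest) of those in scramble cells, and at levels so near to unspecific signal a change could be hidden.

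Csf2rb2, the close paralogue of Csf2rb that pairs with the interleukin 3 receptor in mice, read 3.12 and 3.17 on the shLDHA arrays, against 3.19 and 3.10 on the scramble arrays. Probes of the 2 paralogues may share targets, so their values are uncertain as to which gene they came from.

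Markers of myeloid cells, which carry these receptors in tissue, were low as well. Of 18 markers, 15 were at or below the 4.19 level, among them Ptprc (2.76 and 2.58 on the shLDHA arrays, 2.80 and 2.64 on the scramble arrays) and Itgam (2.88 and 2.74, against 2.90 and 2.94). The 3 above it were Cd14, Cd68 and Cx3cr1. Cd68, a lysosomal protein of macrophages that other cells can also make, fell (log2 change -0.91, limma adjusted p = 0.00516), and 17 of the 18 did not pass. The summed linear signal of the list was 314 to 318 in shLDHA arrays and 391 to 404 in scramble arrays. Without Cd68, the other 17 markers summed to 214 to 230 in shLDHA arrays and 217 to 226 in scramble arrays, which overlap, and their median change was -0.04. The part of Cd68 in the fall of the ligand genes was not tested.

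Among partner chains, second receptors and related growth factors, 1 of 12 tested genes fell and 0 rose, where 2.99% of all genes fell and 3.37% rose. The median change was -0.01 beside 0.01 over all genes. The gene that fell was Kitl, the stem cell factor that acts on Kit, at 7.99 and 7.86 on the shLDHA arrays, against 8.41 and 8.44 on the scramble arrays (log2 change -0.50, limma adjusted p = 0.0259). Kitl passed in 7 of 13 other settings and lost its call under each array left out. Ptprz1, a second receptor for interleukin 34, was dim (log2 change -0.31, adjusted p = 0.202). Sdc1, a syndecan that also binds interleukin 34, read 6.27 and 6.40 in shLDHA cells, against 6.39 and 6.33 in scramble cells. Il5 (-0.32) and Il3ra (-0.31), both dim, did not pass either.

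Of 23 genes that carry the signal below the receptors, 1 fell and 0 rose, where 2.99% of all genes fell and 3.37% rose, so this count is near that of genes at large. The median change was 0.00 beside 0.01 over all genes. Src, a kinase recruited to activated Csf1r, changed by -0.58 (SE 0.10, limma adjusted p = 0.0238) and passed in 8 of 13 other settings. The kinase gene Jak2, which Csf3r and Csf2rb use, read 9.05 and 8.89 on the shLDHA arrays, against 8.65 and 8.59 on the scramble arrays, and did not pass (0.35, adjusted p = 0.0829). Pik3r1, a subunit of PI 3-kinase (0.34), and the adaptor gene Gab2 (-0.30) did not pass. The same held for Stat3 (-0.10), Stat5a (0.19) and Stat5b (0.12), transcription factors of this pathway.

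Among 10 brakes on the receptors, 1 fell and 1 rose, where 2.99% of all genes fell and 3.37% rose. The median change was -0.27 beside 0.01 over all genes. Cblb, a ubiquitin ligase that damps receptor signals, changed by -0.44 (limma adjusted p = 0.0309), and Socs2, a suppressor of cytokine signalling, rose by 0.57 (0.0419). Ptpn6, a phosphatase that restrains myeloid receptors, changed by -0.36 (0.0704), and the ubiquitin ligase gene Cbl by -0.39 (0.0968). Cblb passed in 7 and Socs2 in 6 of 13 other settings.

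Transcription factors and IkB proteins tied to the ligand genes held 9 of the 21 calls in the 6 lists around the pathway. Of 23 tested, 8 fell and 1 rose, with a median change of -0.27 beside 0.01 over all genes, where 2.99% fell and 3.37% rose. The lists were chosen with earlier results of these data known, so these counts only describe the genes listed. Nfkbiz, an atypical IkB protein that cooperates with NF-kB at inflammatory genes, read 6.44 and 6.49 on the shLDHA arrays, against 7.72 and 7.79 on the scramble arrays. Its log2 change was -1.29 (SE 0.08, limma adjusted p = 0.00112). Cebpd, a C/EBP factor of inflammation, read 3.78 and 3.79 in shLDHA cells, against 4.82 and 4.82 in scramble cells. Neither had overlapping groups. The shLDHA values of Cebpd lay under the 4.19 level of unspecific signal, so the size of its fall is uncertain.

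The AP-1 subunit gene Jun changed by -0.92 and the NF-kB subunit gene Relb by -0.93, with limma adjusted p-values of 0.00297 for Jun and 0.00501 for Relb. The calls of Nfkb2 (-0.52), Fosl2 (-0.65), Nfkbia (-0.53), Jund (-0.48) and, upwards, Fos (0.75) were lost in 4 to 6 of 13 other settings. Cebpb, another C/EBP factor, read 7.84 and 8.28 on the shLDHA arrays, against 8.18 and 8.12 on the scramble arrays, and did not pass (-0.09, adjusted p = 0.802). Its shLDHA arrays lay on both sides of the scramble arrays, and a value per gene does not separate its protein forms. Rela, the NF-kB subunit, had a log2 change of -0.27 (adjusted p = 0.136). The count of falls in this list was 2 where every probe set was tested and 4 to 5 with 1 array left out.

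Of 13 RNA-binding proteins that act on cytokine messages, 2 fell and 0 rose, beside 2.99% and 3.37% of all genes, and the median change was -0.03 beside 0.01. Zc3h12a, a ribonuclease that cleaves inflammatory transcripts, read 5.14 and 5.34 on the shLDHA arrays, against 6.58 and 6.61 on the scramble arrays, with no overlap. Its log2 change was -1.36 (SE 0.10, limma adjusted p = 0.00157). Zfp36l2, which promotes decay of messages with AU-rich elements, changed by -0.46 (adjusted p = 0.0314) and passed in 7 of 13 other settings. Its relative Zfp36l1 (-0.35) and Tial1, a translational repressor (0.29), did not pass.

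Of 18 inducing cytokines, receptors and adaptors, 3 fell and 3 rose, beside 2.99% and 3.37% of all genes, and the median change was -0.12 beside 0.01. Il1a, a cytokine that induces G-CSF and GM-CSF in many cells, read 5.63 and 5.58 on the shLDHA arrays, against 10.74 and 10.64 on the scramble arrays. That change, -5.08, exceeded those of all the ligand genes. On the receptor side, Il1rap, the accessory chain of the interleukin 1 receptor, changed by -0.72 (limma adjusted p = 0.00992), and by -0.18 with the mean of its probe sets (0.291). Il1r1, its binding chain, rose by 0.75 (0.0131), and the TNF receptor gene Tnfrsf1b rose by 0.62 (0.0153). Tlr4, the receptor for lipopolysaccharide, rose by 0.47 (0.0308), and Tnf, dim in both groups, changed by -0.59 (0.0187). The calls of Tnfrsf1b, Tlr4 and Tnf each failed in 4 to 6 other settings, and those of Il1r1 and Il1rap in 2 to 3.

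**Figure D3:**
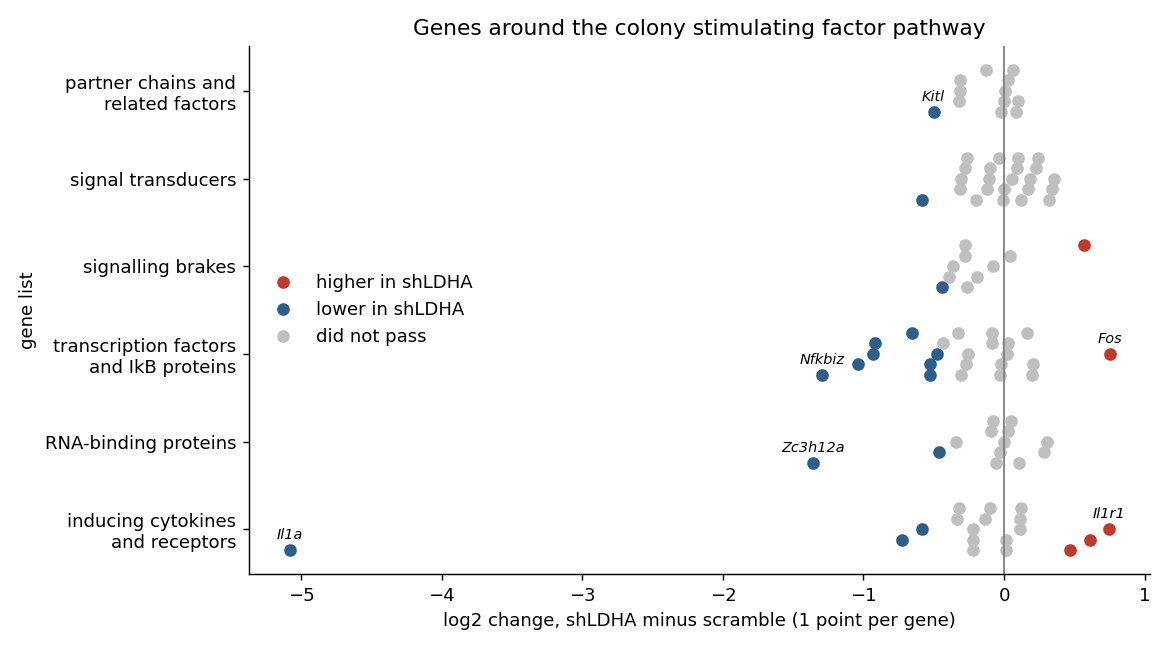
Log2 change (shLDHA minus scramble) of each tested gene in the 6 lists around the ligands and receptors, 1 point per gene, coloured by the limma call. Il1a stands alone at -5.08, and 8 of the 16 called falls are among the transcription factors and IkB proteins. The lists differ in size and were chosen with earlier results of these data known.

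As measured, genes that flank Csf3 and Csf2 on the chromosome moved far less than those ligands. Of these flanking genes, Gsdma, Il3 and Pdlim4 were under the 4.19 level on every array, where a fall could be hidden. Beside Csf3, the proteasome subunit gene Psmd3 changed by 0.03, the Mediator subunit gene Med24 by 0.04 and the thyroid hormone receptor gene Thra by 0.08. Gsdma, a dim pore-forming gasdermin, changed by -0.60 and just failed (limma adjusted p = 0.0516). Il3, the cytokine gene next to Csf2, was dim, at 2.51 and 2.51 on the shLDHA arrays against 2.49 and 2.48 on the scramble arrays. On its far side Acsl6, an acyl-CoA synthetase, fell (-0.67, adjusted p = 0.0241) and lost its call in 4 of 13 other settings. Pdlim4 (-0.07) and the collagen prolyl hydroxylase gene P4ha2 (0.28) did not pass.

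**Figure D4:**
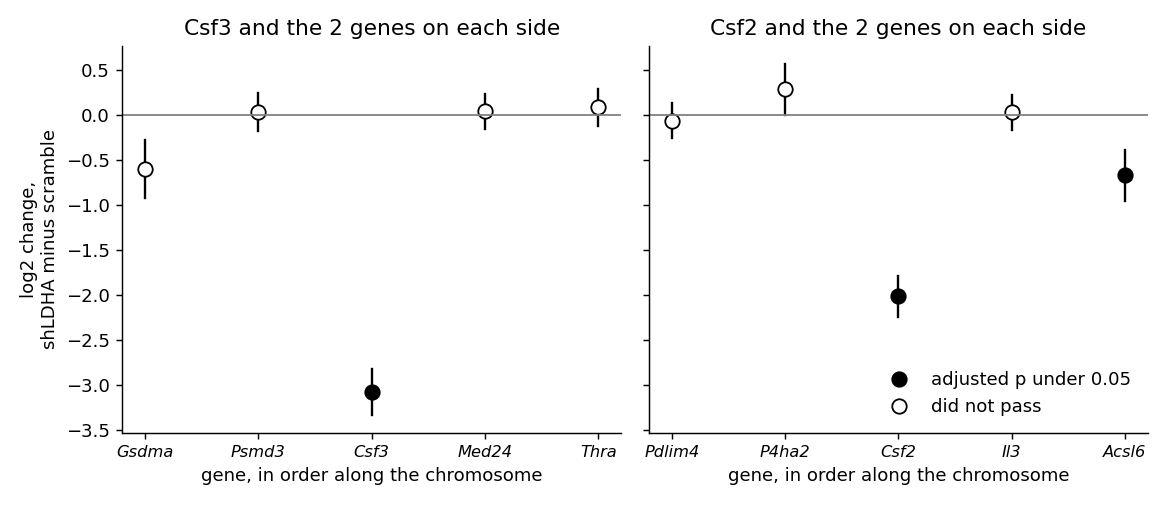
Log2 change (shLDHA minus scramble) with 95% confidence intervals of Csf3 and Csf2 and of the 2 nearest genes with a value on each side, in chromosome order; filled points passed at an adjusted p under 0.05. Of the 8 flanking genes, Acsl6 alone is filled, at -0.67.

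Around all 8 members, 30 flanking genes were tested, of which 2 fell and 1 rose, while 6.36% of all genes were called in either direction. The second fall was Zc3h12a, which lies near Csf3r, and the rise was Oscp1 (0.49, adjusted p = 0.0271), on the other side of Csf3r. Oscp1 passed in 7 of 13 other settings.

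Patterns like those of the fallen ligands were sought by the Euclidean distance between log2 values, each gene centred on its own mean over the 4 arrays. Nearest to Csf3 were the chemokine genes Ccl5 (distance 0.22), Cxcl1 (0.27) and Cxcl5 (0.32). Their log2 changes were -3.15 for Ccl5, -2.82 for Cxcl1 and -3.02 for Cxcl5. Nearest to Csf2 were Podnl1, a leucine-rich repeat protein (0.10), the glypican gene Gpc4 (0.10) and the phospholipase gene Pla1a (0.16). Nearest to Csf1 were the tensin gene Tns4 (0.03), the VEGF receptor gene Flt1 (0.04) and Gfod1 (0.05). With 4 arrays in 2 groups, such a distance mostly ranks genes by the size of their change.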

How the data were processed

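RNA of cultured 4T1 cells was measured on 4 whole-transcript Affymetrix arrays, 2 per group. The authors deposited log2 expression values per probe set, for which the submitters' processing notes name RMA and R 3.4.0. Titles gave the groups and replicate numbers; the label for cell type reads LDHA throughout. Of 41345 probe sets, 23521 had exactly 1 symbol and entered. For genes with several, the brightest on average over all arrays stood for the gene, giving 22180 genes, with no filter on dim ones. limma 3.58.1 in R 4.3.3 (lmFit, eBayes, no covariate) compared the groups across all genes, two-sided. The number of arrays limits the precision, and the median SE was 0.09. SDs are over 2 arrays.

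The code was tested on simulated data for this comparison and number of genes. With 200 changed genes, it called 8.96% of log2 changes of 0.5 and 91.3% of changes of 1. These shares may differ for the real data, where more genes were called. A gene that did not pass is thus not shown to be unchanged. The members and gene lists were chosen with earlier results of these data known. The rule for named genes took the members, Ldha, Csf2rb2, up to 4 genes of each list with the smallest p, flanking genes and the 3 nearest patterns. Other list genes and markers were named after their values were seen. Flanking genes were the 2 nearest on each side with a value in a RefSeq table of GRCm38.p6, passing over predicted names. No source used here names the platform annotation's build, so the only chromosome positions printed are those of the promoter stretches. The other settings were the replicate block, 2 filters on level, quantile normalization repeated, median centring, the mean of probe sets, every probe set tested, eBayes with a trend or robust, and each array left out, 13 in all.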

Additional observations from a re-analysis of the deposited data

How the results depend on the processing

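Csf3 and Csf2 kept a limma adjusted p under 0.05 in all 13 other settings, and Csf1 in 10. With every probe set tested, Csf1 kept its change of -0.67 and Ldha its change of -0.59, and both lost the call. Without 1 array, the log2 change of Csf1 ran from -0.73 to -0.62 and that of Ldha from -0.73 to -0.45. The replicate numbers are shared only as numbers: deviations of same-numbered arrays correlated at -0.03. With the number as a replicate block, Ldha (-0.59) had an adjusted p of 0.0734, the counts over all genes were 433 higher and 405 lower, against 747 and 663, and the 3 member calls stood. These counts were 1442 and 1341 over genes at or above the median level, 1425 and 1381 with a trend, and 33 and 71 with every probe set tested. Without 1 array they were 150 to 322 higher and 220 to 316 lower.

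Signs that turned all belonged to changes near 0 that never passed. Without 1 array, the log2 change ran from -0.0037 to 0.039 for Csf2ra, -0.057 to 0.14 for Csf3r, -0.048 to 0.048 for Csf2rb2, -0.31 to 0.14 for Cebpb, -0.085 to 0.040 for Sdc1, -0.21 to 0.0017 for Stat3 and -0.025 to 0.085 for Psmd3. Sdc1 was at 0.0099 without scramble replicate 1, and Csf2rb2 at -0.021 without shLDHA replicate 2. Csf2rb2 was also at -0.0069 with quantile normalization repeated and at -0.012 with median centring. For the 60 other named genes, 632 of 769 values kept direction and side of the threshold, 110 lost the call, 18 gained it and 9 turned sign. The cause of these shifts was not tested, except that leaving out an array removes a residual degree of freedom. Signal over background limits the receptor genes, and it limits Csf2 and Cebpd in shLDHA cells.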
